A study of Mus musculus with 8 samples.

Results

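The small leucine-rich proteoglycans are secreted proteins of the extracellular matrix, each built around a run of leucine-rich repeats that binds collagen fibrils. The 10 members described here are lumican (Lum), decorin (Dcn), fibromodulin (Fmod), biglycan (Bgn), osteoglycin (Ogn), osteomodulin (Omd), asporin (Aspn), prolargin (Prelp), keratocan (Kera) and epiphycan (Epyc). They were chosen by gene symbol, as probe sets whose annotation names exactly 1 of these genes. Each gene had 1 such probe set, so the family takes 10 of 19938 named genes and 10 of 28944 probe sets tested.

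The study measured RNA from paws, labelled as articular tissue, of male DBA1/J mice, a strain that readily develops arthritis after immunisation with collagen. It had 4 groups with 2 arrays each. In the CIA+MLIF group, mice received type II collagen of chicken (150 µg, emulsified in complete Freund adjuvant) at the tail base, then a boost at week 3 with incomplete adjuvant, and MLIF through the nose each week. The CIA group (collagen-induced arthritis) had the same immunisation without MLIF. The adjuvant+MLIF group received both adjuvants and weekly nasal MLIF but no collagen, and the adjuvant group received the adjuvants alone, so that every mouse in the comparisons had been given Freund adjuvant. MLIF is a pentapeptide of Entamoeba histolytica known for anti-inflammatory activity. Mice were 8 to 10 weeks old and there were 8 per group. The sample labels put tissue collection 4 weeks past the booster, but the text of the series puts it ahead of the booster. Arrays are labelled as biological replicates without saying whether 1 array is 1 mouse or a pool, so that p-values measure only the spread between these arrays.

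Decorin, biglycan and asporin form class I of the family; decorin and biglycan carry chondroitin or dermatan sulfate chains. Lumican, keratocan, fibromodulin, prolargin and osteomodulin form class II, several of which carry keratan sulfate or sulfated tyrosines. Epiphycan and osteoglycin belong to class III. In tendon, cartilage and skin these proteins set the diameter and spacing of collagen fibrils, and soluble biglycan is also known as a ligand of Toll-like receptors. Several genes lie side by side in the mouse genome (RefSeq, GRCm38.p6), with no other protein-coding gene starting between them. Chromosome 10 holds the run Dcn, Lum, Kera and Epyc. Chromosome 13 holds Ecm2, Aspn, Omd and Ogn, in which Ecm2 encodes a related leucine-rich matrix protein. Chromosome 1 holds Optc (opticin), Prelp and Fmod, and Bgn stands apart on chromosome X.

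Start regions are shown for 2 genes that changed between the groups, Kera and Bgn, and for 2 that passed no comparison in the main fit of the deposited values, Aspn and Ogn. Each is the 250 bases before the RefSeq start (GRCm38.p6), on the plus strand, written 5′ to 3′ in lower case. They lie at chr10:97606955-97607204 for Kera, chrX:73483351-73483600 for Bgn, chr13:49544193-49544442 for Aspn and chr13:49607765-49608014 for Ogn. Capitals mark matches, on either strand, to a TATA box (TATAAA), an AP-1 motif (TGANTCA), a GC box (GGGCGG) or a RUNX motif (TGTGGT).
Kera: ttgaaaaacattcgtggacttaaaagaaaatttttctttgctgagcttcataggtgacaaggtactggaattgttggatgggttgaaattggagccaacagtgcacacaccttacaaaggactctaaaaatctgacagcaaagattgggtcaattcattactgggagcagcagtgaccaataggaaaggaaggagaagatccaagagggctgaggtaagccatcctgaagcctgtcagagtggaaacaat
Bgn: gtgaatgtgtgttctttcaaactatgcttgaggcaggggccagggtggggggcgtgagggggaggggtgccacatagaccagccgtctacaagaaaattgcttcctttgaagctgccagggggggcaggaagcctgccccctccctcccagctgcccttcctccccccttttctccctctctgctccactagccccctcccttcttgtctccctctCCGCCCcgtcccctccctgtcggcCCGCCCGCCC
Aspn: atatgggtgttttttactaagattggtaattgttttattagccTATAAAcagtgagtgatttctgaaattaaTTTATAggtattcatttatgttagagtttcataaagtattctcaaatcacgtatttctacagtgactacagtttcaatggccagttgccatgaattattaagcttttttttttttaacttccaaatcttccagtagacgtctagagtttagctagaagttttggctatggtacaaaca
Ogn: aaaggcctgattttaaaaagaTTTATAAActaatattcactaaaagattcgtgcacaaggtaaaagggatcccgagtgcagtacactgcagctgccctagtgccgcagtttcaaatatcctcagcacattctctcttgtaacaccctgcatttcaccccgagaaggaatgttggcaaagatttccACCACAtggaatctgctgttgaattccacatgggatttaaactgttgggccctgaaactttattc
The Bgn window held 3 GC boxes near the start, of which the last 2 overlap, and its GC content was 64.4%. Kera had no match to any of these motifs and a GC content of 42.4%. Aspn held 2 TATA boxes, the nearer one 178 bases upstream, and Ogn held 2 TATA boxes that overlap on opposite strands and 1 RUNX motif. The short E-box (CANNTG), left in lower case, occurred 1 time each in Bgn and Aspn, 3 times in Ogn and 0 times in Kera. Of 32851 start regions of the same length, 32.7% held a GC box, 12.4% a TATA box, 14% a RUNX motif, 6.75% an AP-1 motif and 66.2% an E-box. Start regions were found for 8 of the 10 members, and the other 4 of them (Fmod, Prelp, Omd and both starts of Epyc) held none of the 4 capitalised motifs. A match describes letters in this window and not a bound site.

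The deposited values are log2 signals. A value compares arrays for the same probe set and is not a measure of one gene against another. CIA replicate 1 stood apart from the other arrays. The median over all probe sets was 6.66 on CIA replicate 1, against 7.07 to 7.10 on the other 7 arrays, and CIA against adjuvant had a median change of -0.25 over all probe sets. The spread between the 2 arrays of a group was also uneven, with an SD of the difference over probe sets of 0.263 in CIA+MLIF, 0.324 in CIA, 0.0936 in adjuvant+MLIF and 0.207 in adjuvant. Array weights, used below as an alternative setting, were 0.75 on each CIA+MLIF array, 0.14 on each CIA, 7.76 on each adjuvant+MLIF and 1.24 on each adjuvant array. A fit with these weights therefore leans most on the adjuvant+MLIF pair. The main fit shares a spread per probe set over all groups, so that close pair also enters the SE of comparisons without it. Changes are given on the deposited values, and beside them, where it matters, after each array was centred on its own median or after quantile normalization. Some transcripts of joint tissue were well above the entries taken as array controls (array medians 5.88 to 6.44). Over the 8 arrays, Prg4 (lubricin) averaged 12.88, Comp (cartilage oligomeric matrix protein) 12.05, Acan (aggrecan) 9.95 and Col2a1 (type II collagen) 9.70. Averages of other chondrocyte markers ran from 5.36 for Matn1, below these controls, to 11.75 for Cytl1. Between them lay, among others, Matn3 at 6.68, Hapln1 at 7.18 and Sox9 at 8.48. Of 13 chondrocyte markers, 1 was below the control median on all arrays.

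In CIA paws, 4 of the 10 members were higher than in adjuvant paws and 0 were lower: Lum, Kera, Bgn and Epyc. Over all probe sets, 4.30% were called higher and 14.2% lower in this comparison. These shares were 14.4% and 13.7% after quantile normalization, and 13.4% and 14.1% after centring. The median change was 0.27 over the members and -0.25 over all probe sets. Tests are those of a limma fit over all 8 arrays, with Benjamini-Hochberg adjustment over the 28944 probe sets and a call at an adjusted p under 0.05. In CIA+MLIF paws, 5 members were lower than in CIA paws and 0 were higher: Lum, Kera, Bgn, Omd and Fmod. Over all probe sets, 3.25% were called lower and 11.5% higher in that comparison, 13.0% and 11.5% after quantile normalization, and 12.1% and 12.0% after centring. The median change there was -0.47 over the members and 0.24 over all probe sets. Under each of these other scalings 6 members were called higher in CIA against adjuvant and 7 lower in CIA+MLIF against CIA. The 2 comparisons share the CIA arrays, so a high or low value on those arrays enters both with opposite sign. The tissue was measured in bulk, in which fewer cells of a type and less RNA per cell cannot be told apart.

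**Figure D1:**
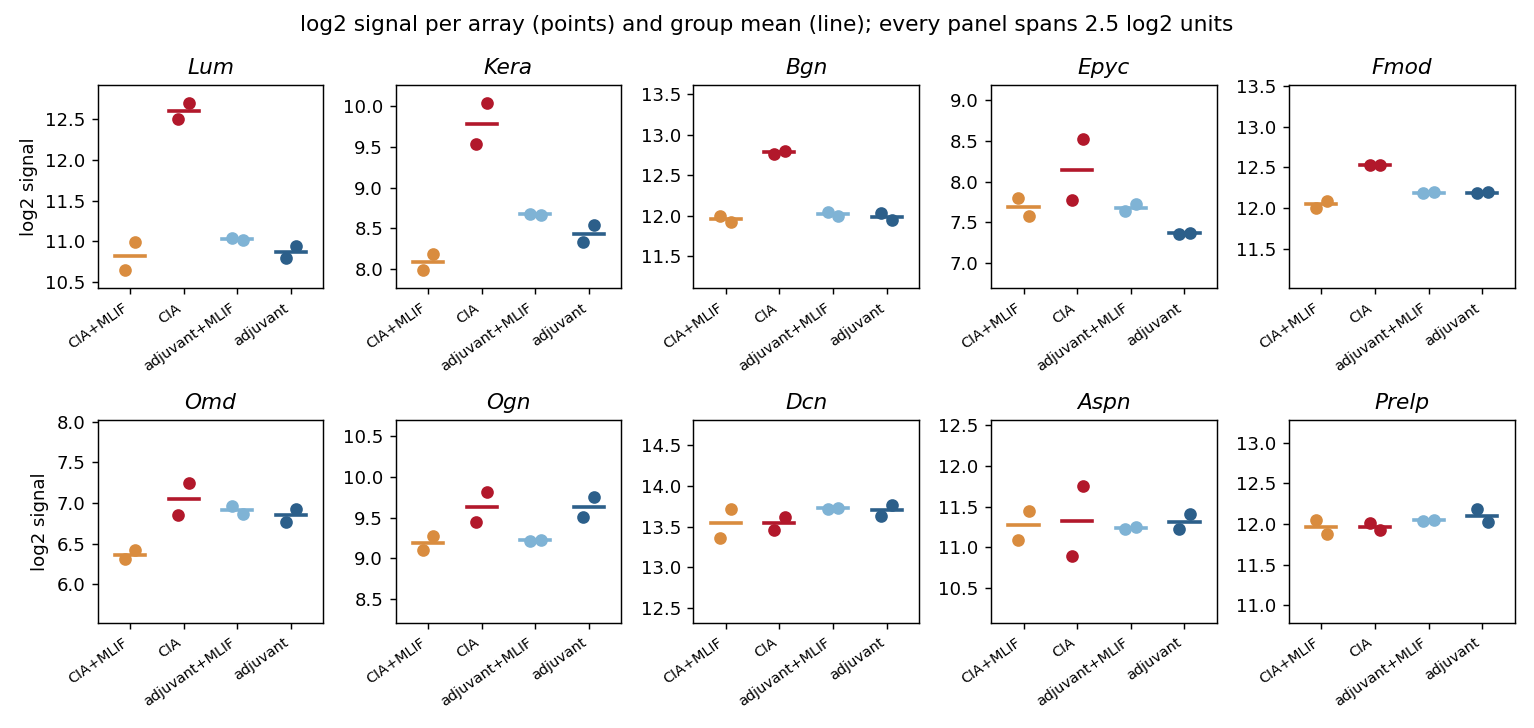
Deposited log2 signal of the 10 members on each of the 8 arrays, with 1 panel per member, groups along the horizontal axis, points for arrays and lines for group means. The CIA points of Lum, Kera and Bgn lie above those of the other 3 groups, whereas those of Dcn and Prelp lie among or below them and those of Aspn are the lowest and the highest of the 8.

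Lumican, a proteoglycan of cornea, skin and tendon, had the largest change of the 10 members in both comparisons on the deposited and on the centred values. After quantile normalization, the fall in CIA+MLIF against CIA was larger for Kera (-1.87) than for Lum (-1.82). The log2 signal of Lum was 10.65 and 10.99 in CIA+MLIF, 12.51 and 12.70 in CIA, 11.04 and 11.02 in adjuvant+MLIF, and 10.80 and 10.94 in adjuvant paws. Both CIA arrays lay above all 6 others, which themselves spanned a narrow range. Lum was 3.33-fold higher in CIA than in adjuvant paws (log2 change 1.74, SE 0.17, adjusted p 1.43e-04), and 204 of the 28944 probe sets rose by more. With MLIF it was 3.45-fold lower than in CIA alone (log2 change -1.78, SE 0.17, adjusted p 2.32e-04), and 47 probe sets fell by more. The CIA+MLIF and adjuvant levels differed by -0.05 (95% interval -0.43 to 0.33). The test called Lum in both comparisons under all 21 alternative settings. Not all of these could remove a call from a member. The threshold of 0.10 is looser, and averaging probe sets leaves the values of a gene with 1 probe set unchanged.

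Keratocan, a keratan sulfate proteoglycan best known from the cornea and also made in tendon, was also highest in CIA paws. The arrays read 7.99 and 8.19 in CIA+MLIF, 9.54 and 10.04 in CIA, 8.68 and 8.67 in adjuvant+MLIF, and 8.33 and 8.54 in adjuvant. Again no other array reached the CIA values. Kera was 2.56-fold higher in CIA than in adjuvant paws (log2 change 1.36, SE 0.19, adjusted p 0.00139). It was 3.25-fold lower in CIA+MLIF than in CIA paws (log2 change -1.70, SE 0.19, adjusted p 5.91e-04). All 21 alternatives kept both calls. Its CIA+MLIF arrays were also the lowest of the 8, by -0.59 against adjuvant+MLIF, which missed the threshold after adjustment (unadjusted p 0.0139, adjusted p 0.679 in limma) and passed it with array weights (adjusted p 0.0215).

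Biglycan, which binds collagen and growth factors in bone and cartilage, had close replicates. It gave 12.00 and 11.92 in CIA+MLIF, 12.76 and 12.80 in CIA, 12.05 and 12.00 in adjuvant+MLIF, and 12.03 and 11.95 in adjuvant. The 6 arrays outside CIA lay within 11.92 to 12.05, and the CIA pair above them. The log2 change was 0.79 in CIA against adjuvant (SE 0.14, 1.73-fold, adjusted p 0.00448) and -0.82 in CIA+MLIF against CIA (SE 0.14, 1.76-fold lower, adjusted p 0.0048). The call in CIA against adjuvant was lost without adjuvant replicate 2, with array weights and in a fit of the compared groups alone, with log2 changes of 0.75, 0.79 and 0.79 (adjusted p 0.0619, 0.071 and 0.0503). The call in CIA+MLIF against CIA was lost with array weights (adjusted p 0.0933) and in the fit of the compared groups alone (adjusted p 0.0581).

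Epiphycan, which is known from growth plate cartilage, had unlike values on the 2 CIA arrays. Its values were 7.80 and 7.58 in CIA+MLIF, 7.77 and 8.52 in CIA, 7.64 and 7.72 in adjuvant+MLIF, and 7.36 and 7.37 in adjuvant. CIA replicate 1 fell inside the range of the 2 MLIF groups, and CIA replicate 2 was the highest of the 8. The rise over adjuvant (log2 change 0.78, SE 0.23) passed narrowly, with an adjusted p of 0.0456, and 10 of the 21 alternatives called it. The change was 1.15 without CIA replicate 1 and 0.41 without CIA replicate 2, and leaving out any 1 of the 6 arrays of the other groups lost the call (adjusted p 0.0715 to 0.195). Against CIA, the change in CIA+MLIF was -0.46 (SE 0.23, adjusted p 0.195), and it passed without CIA replicate 1 (-0.83, adjusted p 0.0051) and after centring (-0.68, adjusted p 0.00776).

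Fibromodulin and osteomodulin passed on the deposited values in CIA+MLIF against CIA and in no other comparison. Fmod read 12.00 and 12.09 in CIA+MLIF, 12.53 and 12.53 in CIA, 12.18 and 12.20 in adjuvant+MLIF, and 12.18 and 12.20 in adjuvant paws. The groups did not overlap in that comparison, in which Fmod was 1.4-fold lower (log2 change -0.49, SE 0.14, adjusted p 0.0436). That call was lost when any 1 of the 6 arrays outside CIA was left out (adjusted p 0.0981 to 0.218), with array weights (adjusted p 0.307) and in the fit of the compared groups alone (adjusted p 0.348). In CIA against adjuvant its change was 0.34 (SE 0.14, adjusted p 0.112). Centring the arrays gave 0.56 there (adjusted p 0.0178) and quantile normalization 0.45 (adjusted p 0.0242), and with either CIA array left out it also passed at 0.34 (adjusted p 0.0477 without replicate 1 and 0.023 without replicate 2).

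Osteomodulin, also called osteoadherin and known from bone and dentine, had the signal nearest to the array controls. Omd read 6.31 and 6.42 in CIA+MLIF, 6.85 and 7.24 in CIA, 6.96 and 6.87 in adjuvant+MLIF, and 6.77 and 6.93 in adjuvant. The CIA+MLIF pair lay below the other 6 arrays, and its first array was under the control median of that array, 6.39. The second array lay just above its own control median of 6.35, so no fold is given. The signal was lower in CIA+MLIF than in CIA (log2 change -0.68, SE 0.17, adjusted p 0.029), a call that leaving out any 1 of the 6 arrays outside CIA removed (adjusted p 0.0607 to 0.178). It was also lost with array weights (adjusted p 0.236) and in the fit of the compared groups alone (adjusted p 0.141). Its changes in CIA+MLIF were -0.56 against adjuvant+MLIF and -0.49 against adjuvant (adjusted p 0.56 and 0.933), the first of which passed after quantile normalization (-0.58, adjusted p 0.044) and with array weights (adjusted p 0.0292). In CIA against adjuvant the change was 0.20 (SE 0.17, adjusted p 0.419), and 0.41 after centring (adjusted p 0.0233) and after quantile normalization (adjusted p 0.0217).

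Osteoglycin, also named mimecan and known from bone and cornea, differed by MLIF more than by collagen in its array values. Its signal was 9.10 and 9.27 in CIA+MLIF, 9.45 and 9.81 in CIA, 9.21 and 9.23 in adjuvant+MLIF, and 9.51 and 9.75 in adjuvant paws. All 4 arrays of mice given MLIF lay below all 4 arrays of mice without it, whether or not collagen had been given. How many of all probe sets are ordered this way was not counted, so no effect of MLIF is read from the order. The changes were -0.45 in CIA+MLIF against CIA (SE 0.17, unadjusted p 0.0309, adjusted p 0.116) and -0.41 in adjuvant+MLIF against adjuvant (SE 0.17, unadjusted p 0.0447, adjusted p 1). Neither passed the test over all probe sets. The first passed after centring (-0.67, adjusted p 0.00481), after quantile normalization (-0.60, adjusted p 0.00243) and without CIA replicate 1 (-0.63, adjusted p 0.0219), and the second with array weights (adjusted p 0.0267). CIA and adjuvant paws had the same mean, with a change of 0.00 (95% interval -0.39 to 0.40).

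Decorin, asporin and prolargin were called in no comparison on the deposited values. Decorin, the main dermatan sulfate proteoglycan of skin and tendon, gave 13.36 and 13.72 in CIA+MLIF, 13.46 and 13.62 in CIA, 13.72 and 13.73 in adjuvant+MLIF, and 13.63 and 13.77 in adjuvant. The CIA pair lay just below both groups without collagen, and the CIA+MLIF pair spanned nearly the whole range. Its change in CIA against adjuvant was -0.16 (95% interval -0.53 to 0.22, adjusted p 0.503), and the sign turned to 0.06 after centring and 0.20 after quantile normalization.
Asporin, which carries a stretch of aspartate residues in place of a sugar chain, gave 11.09 and 11.45 in CIA+MLIF, 10.89 and 11.75 in CIA, 11.23 and 11.25 in adjuvant+MLIF, and 11.22 and 11.41 in adjuvant. The 2 CIA arrays were the lowest and the highest of the 8. The change in CIA against adjuvant of 0.01 had a wide interval, from -0.59 to 0.60. It read -0.42 without CIA replicate 2, 0.44 without CIA replicate 1, and 0.38 after quantile normalization without CIA replicate 1.
Prolargin, which binds collagen and heparan sulfate chains, gave 12.05 and 11.88 in CIA+MLIF, 12.01 and 11.93 in CIA, 12.04 and 12.05 in adjuvant+MLIF, and 12.19 and 12.02 in adjuvant. Its changes were -0.13 in CIA against adjuvant (95% interval -0.47 to 0.20, adjusted p 0.526) and -0.01 in CIA+MLIF against CIA (95% interval -0.34 to 0.33, adjusted p 0.981).

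**Figure D2:**
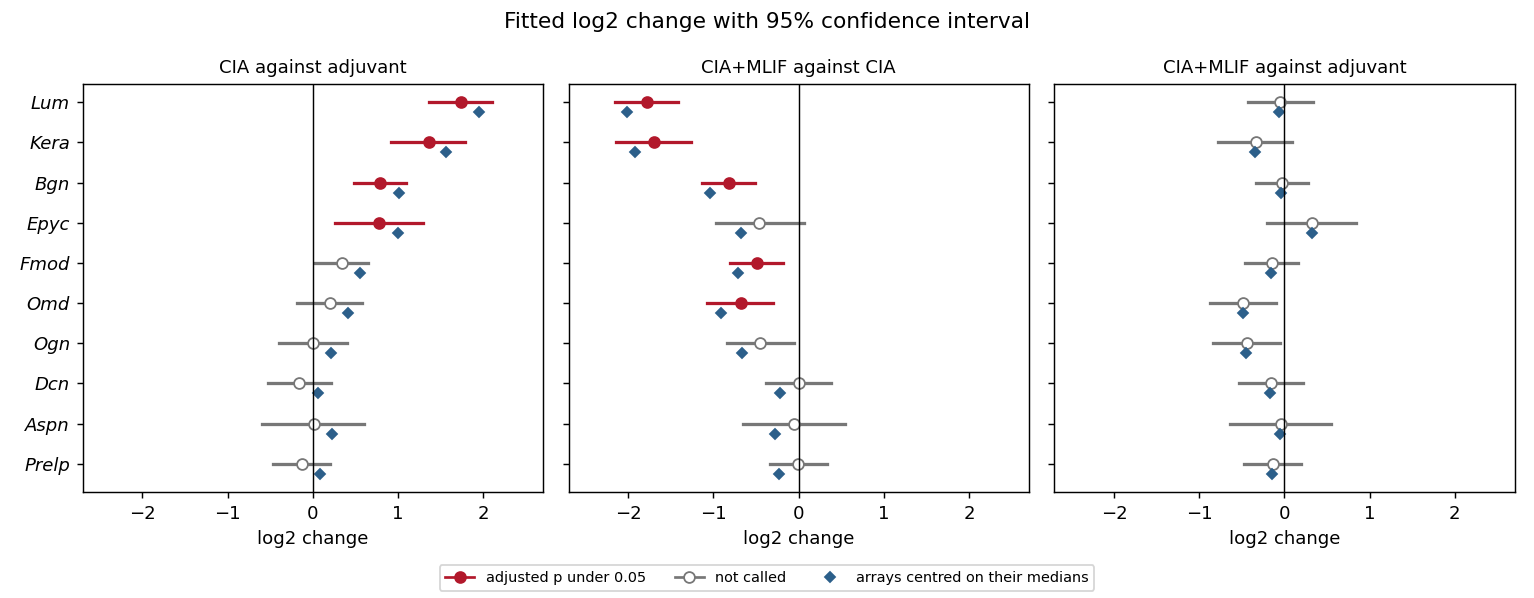
Log2 change of each member with its 95% interval from the limma fit, for CIA against adjuvant (left), CIA+MLIF against CIA (middle) and CIA+MLIF against adjuvant (right), with called members in red and values from centred arrays as diamonds. Lum, Kera and Bgn lie right of 0 on the left and left of 0 in the middle, and on the right only the intervals of Omd and Ogn leave out 0.

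Differences between 2 members on the same array do not depend on a shift of all values of that array. Lum minus Dcn, a pair of neighbours on chromosome 10, was -2.71 and -2.73 in CIA+MLIF, -0.95 and -0.92 in CIA, -2.68 and -2.71 in adjuvant+MLIF, and -2.84 and -2.82 in adjuvant. Replicates differed by at most 0.03, whereas the CIA mean lay 1.89 above the adjuvant mean and the CIA+MLIF mean -1.78 from the CIA mean. Kera minus Dcn moved by 1.52 and -1.70 in the same comparisons, with replicates up to 0.35 apart. Bgn minus Dcn moved by 0.95 and -0.82, with replicates up to 0.42 apart. Epyc minus Dcn moved by 0.94 and -0.46 with replicates 0.58 apart, so that its second shift was smaller than the gap between replicates. On chromosome 1, Fmod minus Prelp moved by 0.48 and -0.48, with a largest replicate gap of 0.26. The pair Lum and Kera stayed closer together, as their difference moved by 0.38 and -0.08 with replicates up to 0.31 apart.

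**Figure D3:**
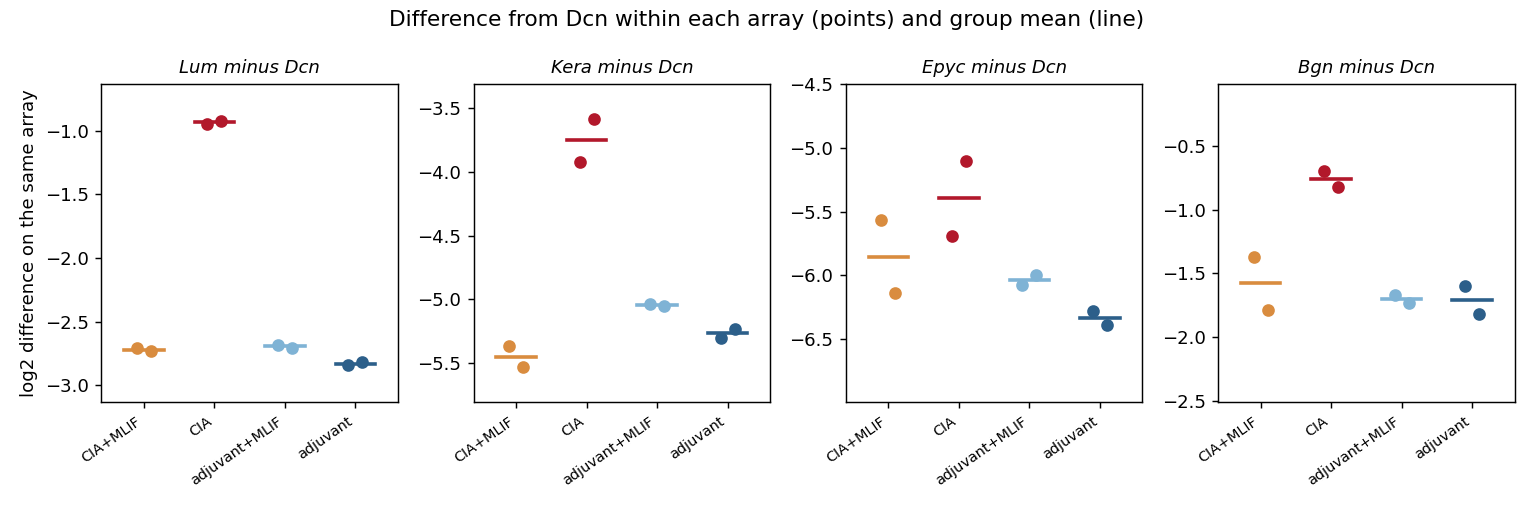
Difference of Lum, Kera, Epyc and Bgn from Dcn on the same array, in log2 units, with points for arrays and lines for group means in the 4 groups. Both CIA points lie above the other 6 for Lum, Kera and Bgn, and the 2 Lum points of each group nearly coincide.

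Neighbouring genes are set side by side here. Along chromosome 10 the changes in CIA against adjuvant were -0.16 for Dcn, 1.74 for Lum, 1.36 for Kera and 0.78 for Epyc. On chromosome 13 they were -0.66 for Ecm2 (adjusted p 0.0398), 0.01 for Aspn, 0.20 for Omd and 0.00 for Ogn. On chromosome 1 they were -0.60 for Optc (adjusted p 0.0831), -0.13 for Prelp and 0.34 for Fmod. In CIA+MLIF against CIA, the runs read 0.00, -1.78, -1.70 and -0.46 on chromosome 10 and 0.32, -0.05, -0.68 and -0.45 on chromosome 13, in the same gene order.

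In mice without collagen, no member was called with MLIF. In adjuvant+MLIF against adjuvant, 0 of 10 members and 0 of all probe sets passed in limma (background 0%), and 1 member, Ogn, had an unadjusted p under 0.05. Changes ran from -0.41 for Ogn to 0.32 for Epyc, with a member median of 0.03. The difference between the 2 effects of MLIF, with collagen minus without, was lower than 0 for 3 members at an adjusted p under 0.05: Lum, Kera and Bgn, while 1.62% of all probe sets were called lower and 5.62% higher. After quantile normalization 5 members and 8.79% of all probe sets were called lower, and after centring 6 members and 8.13%. For Lum it was -1.94 (SE 0.24, adjusted p 0.00144), for Kera -1.94 (SE 0.27, adjusted p 0.003) and for Bgn -0.85 (SE 0.20, adjusted p 0.0309). Lum and Kera passed under every alternative run here, whereas the call of Bgn was lost when any 1 of the 6 arrays outside CIA was left out (adjusted p 0.0976 to 0.237) and with array weights (adjusted p 0.0786). Omd at -0.75, Epyc at -0.77 and Fmod at -0.49 missed the threshold (adjusted p 0.105, 0.209 and 0.184).

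Against the groups without collagen, CIA+MLIF paws had 0 called members. Over all probe sets 0.729% passed in either direction in CIA+MLIF against adjuvant+MLIF (0.200% lower after quantile normalization, with 1 member, Omd), and 0.833% in CIA+MLIF against adjuvant. In each of the 2 comparisons, 2 members had an unadjusted p under 0.05: Kera and Omd in the first, and Omd (-0.49) and Ogn (-0.44) in the second. The intervals were wide enough to hold sizeable differences, such as -0.78 to 0.09 for Kera in CIA+MLIF against adjuvant.

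Collagens to which these proteins bind were called in the same directions as Lum, Kera and Bgn. Of 13 such genes, 11 were higher and 0 lower in CIA than in adjuvant paws, with a median change of 0.84, and 12 were lower and 0 higher in CIA+MLIF than in CIA paws, with a median of -0.85. Pairs of changes are given for CIA against adjuvant and then for CIA+MLIF against CIA. Col12a1, a collagen of fibril surfaces, averaged 9.63 in CIA+MLIF, 11.06 in CIA and 9.61 in adjuvant paws (log2 changes 1.45 for CIA against adjuvant, adjusted p 4.16e-04, and -1.43 for CIA+MLIF against CIA, adjusted p 6.83e-04). Col6a3, a chain of the beaded-filament collagen VI that binds biglycan and decorin, changed by 1.32 and -1.33 (adjusted p 6.76e-04 and 9.20e-04). Col5a2, of the type V collagen that limits fibril growth, changed by 1.26 and -1.22 (adjusted p 3.65e-04 and 6.67e-04). Col3a1 changed by 0.96 and -0.89. The cartilage collagen Col2a1 was called in neither, at 0.31 and -0.20 (adjusted p 0.149 and 0.334), but in both after centring, at 0.53 and -0.42 (adjusted p 0.0115 and 0.0323). After centring all 13 collagens were higher in CIA than in adjuvant paws and all 13 lower in CIA+MLIF than in CIA paws.

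Most of the proteases reported to cut these core proteins were also called. Of 12, 9 were higher and 1 lower in CIA than in adjuvant paws (median 1.03), and 8 were lower and 1 higher in CIA+MLIF than in CIA paws (median -0.99). Mmp13, the collagenase that also cleaves fibromodulin, averaged 9.89 in CIA+MLIF, 12.48 in CIA and 10.11 in adjuvant paws. Its log2 changes were 2.37 and -2.59 (adjusted p 8.20e-06 and 1.30e-05). Mmp9 changed by 2.61 and -2.65, Mmp3 by 2.08 and -2.03, and Mmp8 by 2.15 and -2.06. Mmp8 and Mmp9 are also neutrophil markers here, just as Col1a1 and Col3a1 stand among both the collagens and the fibroblast markers. Adamts5, an aggrecan-cutting protease, ran the other way, at -0.77 and 0.69 (adjusted p 0.00559 and 0.0124), while Adamts4 changed by 1.02 and -1.08.

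How many enzymes of the sugar chains were called depended on the scaling. Among 22 enzymes for the linker and for chondroitin or dermatan sulfate, 3 were higher and 0 lower in CIA than in adjuvant paws (median 0.04), and 3 were lower and 0 higher in CIA+MLIF than in CIA paws. After centring, 9 of the 22 were higher in the first comparison and 8 lower in the second, against 13.4% and 12.1% of all probe sets. The 3 on the deposited values were Csgalnact1 (0.92 and -0.99), which starts the chondroitin chain, Chsy1 (0.68 and -0.61), which extends it, and Dsel (0.82 and -0.69), which belongs to the dermatan epimerases. None of 10 keratan sulfate and tyrosine sulfation enzymes was called in either comparison, although after centring 3 were higher in CIA than in adjuvant paws and 4 lower in CIA+MLIF than in CIA paws. Of 17 receptors and ligands, 2 were higher and 1 lower in CIA than in adjuvant paws, and 1 was higher and 3 lower in CIA+MLIF than in CIA paws. These counts were 5 and 2, and 1 and 6, after centring. Cd14, the co-receptor of Toll-like receptors, changed by 0.79 and -0.78 (adjusted p 0.0117 and 0.0147), and Ccn4, a matricellular protein that binds decorin and biglycan, by 0.90 and -0.85 (adjusted p 0.00402 and 0.00695). Tgfb2 changed by -0.78 and 0.55 (adjusted p 0.00819 and 0.0432). Tlr2 and Tlr4 were not called, at 0.26 and -0.23 in CIA against adjuvant. After centring Tlr2 was called in both comparisons, at 0.48 and -0.50 (adjusted p 0.00835 and 0.00819), and Tlr4 in neither.

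Other leucine-rich and proteoglycan core proteins were called in both directions. Of 7 further genes of the leucine-rich family, 0 were higher and 3 lower in CIA than in adjuvant paws: Ecm2 (-0.66), Nyx (-0.52) and Podn (-0.61, podocan). On these values 0 of the 7 were called in CIA+MLIF against CIA. After centring, 1 of the 7, Podnl1, was higher and 2 were lower in CIA than in adjuvant paws, and Podnl1 was lower in CIA+MLIF than in CIA paws (-0.77, adjusted p 0.00206). Of 22 other proteoglycans, 3 were higher and 4 lower in CIA than in adjuvant paws. Sdc1 (syndecan 1) changed by 1.08 and -0.67, and Srgn (serglycin), the proteoglycan of granules in blood cells, by 0.52 and -0.80. Gpc3 and Spock2 changed the other way, by -1.12 and 0.99 and by -0.90 and 0.96.

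**Figure D4:**
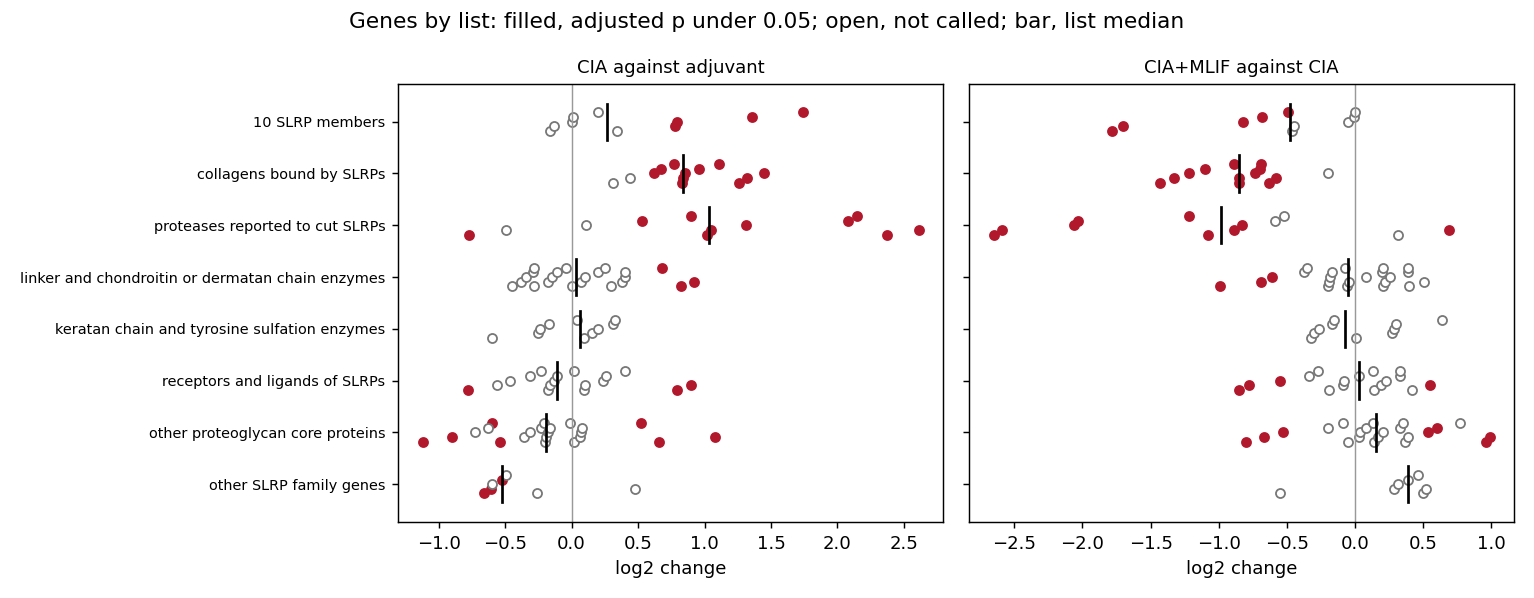
Log2 change of each gene in the 10 members and 7 lists of related genes, in CIA against adjuvant (left) and CIA+MLIF against CIA (right), with called genes filled, other genes open and a bar at each list's median. The medians of collagens and proteases lie at 0.84 and 1.03 on the left and at -0.85 and -0.99 on the right.

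Markers of the cell types that a paw can hold moved over the same comparisons, and their part in the changes of the members was not tested. All 14 neutrophil markers were higher in CIA than in adjuvant paws and lower in CIA+MLIF than in CIA paws, with list means over genes of 7.63 to 7.68 on the CIA+MLIF arrays, 9.38 to 9.65 in CIA, 8.11 to 8.12 in adjuvant+MLIF and 7.35 to 7.53 in adjuvant. All 16 skeletal muscle markers ran the other way, at 12.23 to 12.44 in CIA+MLIF, 10.94 to 11.16 in CIA, 12.40 to 12.41 in adjuvant+MLIF and 12.33 to 12.45 in adjuvant. Myh7, a slow myosin heavy chain, changed by -2.56 in CIA against adjuvant and 2.43 in CIA+MLIF against CIA. Of 9 adipocyte markers, 8 were lower in CIA than in adjuvant paws, and 5 were higher in CIA+MLIF than in CIA paws.

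Epidermal markers differed between collagen and adjuvant groups whether or not MLIF was given. Of 13, 12 were higher in CIA than in adjuvant paws and 10 higher in CIA+MLIF than in either group without collagen. Compared with CIA paws, 10 of the 13 were lower and 0 higher in CIA+MLIF paws. The list mean was 9.42 to 9.53 in CIA+MLIF, 10.32 to 10.60 in CIA, 6.14 to 6.15 in adjuvant+MLIF and 6.09 to 6.13 in adjuvant. On the 4 arrays without collagen it lay below the control medians of those arrays, 6.29 to 6.39. Krt2, an epidermal keratin, averaged 10.41 in CIA+MLIF, 12.24 in CIA, 5.32 in adjuvant+MLIF and 5.38 in adjuvant paws. Lum averaged 10.82 ± 0.24 in CIA+MLIF, 12.60 ± 0.14 in CIA, 11.03 ± 0.014 in adjuvant+MLIF and 10.87 ± 0.10 in adjuvant paws (SD, n = 2 arrays each).

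Markers of the cells known to make these proteins moved unevenly. Of 12 fibroblast markers, 4 were higher and 2 lower in CIA than in adjuvant paws, and 1 was higher and 4 lower in CIA+MLIF than in CIA paws. The 2 lower in CIA were Clec3b and Prrx1. Clec3b changed by -0.67 and 0.88 (adjusted p 0.0254 and 0.0089), and Prrx1 by -0.56 and 0.32 (adjusted p 0.0288 and 0.155). Fap, a protease of activated fibroblasts, changed by 1.04 and -1.17, and Thy1 by 0.93 and -0.77, whereas Pdgfra and Pdgfrb were not called (0.18 and 0.15 in CIA against adjuvant). After centring, 6 fibroblast markers were higher and 1 lower, and Pdgfrb passed (0.36, adjusted p 0.0439). Of 7 tenocyte markers, Tnmd (tenomodulin) and Thbs4 were higher, at 1.09 and 0.91, and Egr1 was lower (adjusted p 0.00682). Scx (scleraxis), the tendon transcription factor, was not called, at -0.09. Of 7 osteoblast markers, 4 were higher in CIA than in adjuvant paws, among them Ibsp (bone sialoprotein, 1.19) and Alpl (0.90), and 6 were lower in CIA+MLIF than in CIA paws (6 and 7 after centring). Of 13 chondrocyte markers 0 were higher and 4 lower, led by Cytl1 at -2.41, with Acan (-0.18) and Sox9 (-0.06) not called. After centring 3 chondrocyte markers, Col2a1, Matn3 and Hapln1, were higher and 4 lower in CIA than in adjuvant paws, and the same 3 were lower and 4 higher in CIA+MLIF than in CIA paws. On the deposited values 0 of 9 endothelial markers were called in either comparison, whereas after centring 4 were higher in CIA than in adjuvant paws and 7 lower in CIA+MLIF than in CIA paws.

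The genes whose values ran closest to each member over the 8 arrays were found by the root mean square distance after each probe set's mean was subtracted. For Lum these were Cpz (distance 0.107), Edil3 (0.114) and Bdkrb1 (0.117), where Lum itself varied about its mean by 0.747. Cpz encodes a carboxypeptidase, Edil3 a matrix protein that binds integrins, and Bdkrb1 a bradykinin receptor. For Kera they were Ppic, Saa3 and Panx3, at distances of 0.152 to 0.158. For Bgn they were Matn4 (0.047), Col15a1 (0.062) and Col11a2 (0.062), all matrix genes. For Epyc they were Rab27b, Urah and Tnfrsf12a, for Fmod Ttyh3, Far1 and Thbs1, and for Omd Meox1, Serpinb9 and Casp12. Dcn had Taok1, Crot and Tcf12 nearest, and Aspn had Stil, Pigc and Nebl. Prelp had Nlrc5, Shf and Tmem59l, and Ogn had Zfp442, Sema7a and Lsp1. The arrays share their groups and scaling, so these distances describe 8 arrays only.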

How the data were processed

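The values are log2 signals of the authors' deposited table from Affymetrix Mouse Gene 1.0 ST arrays hybridised with biotin-labelled RNA, per the labels. The log scale was inferred from the range of the values. Which software, background correction and normalization made them is not given in the sources used here. Of 35557 entries, the first 6613 have no annotation and consecutive identifiers and were taken as array controls, and the other 28944 were tested without a filter on signal. The platform annotation gives 21789 of these 1 symbol, 1621 several and 5534 none.

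The 6 comparisons came from 1 limma fit of the 4 group means to all 8 arrays (limma 3.58.1 in R 4.3.3, with 4 degrees of freedom from residuals and 4.96 from the prior), with Benjamini-Hochberg adjustment over the 28944 probe sets and a two-sided adjusted p under 0.05 as a call. Arrays have no sequencing depth, and 2 arrays per group limit the precision (median SE of a change 0.18). The fit was tested on simulated data. The members and the 16 lists of related genes were chosen with earlier results of these data known, so counts over them are descriptions. Where a listed gene had several probe sets, the brightest on average was kept, and 203 of 211 listed genes were measured. In each list the text names up to 4 called genes with the smallest adjusted p. Ecm2, Optc, Podnl1, Col2a1, Adamts4, Adamts5, Tlr2, Tlr4, Matn1, Matn3, Hapln1, Pdgfra, Pdgfrb, Clec3b, Prrx1, Scx, Acan, Sox9, Prg4 and Comp were named after their values were seen. Start regions are from RefSeq (GRCm38.p6). Alternatives were quantile normalization, centring, a signal filter, other variance settings, array weights, a fit of the compared groups, a replicate block, averaging of probe sets, other thresholds and leaving out each array. Plots were made in Python 3.11.15 with Matplotlib 3.10.9.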

Additional observations from a re-analysis of the deposited data

Results flagged for a closer look

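The change with MLIF differed between mice with and without collagen for 3 members, by limma's test of the difference itself, adjusted over all probe sets. For Lum the change in collagen-immunised minus that in adjuvant-only mice was -1.94 (log2), made up of -1.78 in CIA+MLIF against CIA and 0.16 in adjuvant+MLIF against adjuvant. For Kera it was also -1.94, from -1.70 and 0.24. For Bgn it was -0.85, from -0.82 and 0.04. The 2 adjuvant+MLIF arrays are closer to each other than those of any other group, and the CIA arrays farthest apart.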

How the results depend on the processing

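The calls of Lum and Kera in CIA against adjuvant, in CIA+MLIF against CIA and in the interaction of MLIF and collagen held under every alternative run, with adjusted p-values in the first 2 of at most 0.005 for Lum and 0.0223 for Kera. With array weights, 2 members were called higher in CIA against adjuvant and 2 lower in CIA+MLIF against CIA. The share of all probe sets called with array weights is not given here, so these counts have no background beside them. The fit of the compared groups alone, with fewer arrays, also gave 2 and 2. At an adjusted p under 0.01, 3 members were lower in CIA+MLIF against CIA, and 3 with the adjuvant+MLIF arrays averaged as 1 array, which was chosen after seeing the data. Array weights called 1 member lower in adjuvant+MLIF against adjuvant and 2 in CIA+MLIF against adjuvant+MLIF, where quantile normalization called 1, Omd, and quantile normalization without CIA replicate 1 (chosen after seeing the data) called 1 other, Kera (adjusted p 0.0378). The interaction called 5 members lower after quantile normalization and 6 after centring. Leaving out each array in turn gave 2 to 5 higher in CIA against adjuvant (2 without adjuvant replicate 2), 3 to 7 lower in CIA+MLIF against CIA (3 without any 1 of the 6 arrays outside CIA) and 2 to 6 lower in the interaction (6 without CIA replicate 1, 5 without CIA replicate 2). The causes were not tested.

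Deviations of replicate 1 from the group mean correlated at 0.39 between CIA+MLIF and adjuvant. In the other pairs of groups the correlations were -0.108 to 0.00493. Whether the replicate numbers pair the arrays of CIA+MLIF and adjuvant is not known. With the replicate block, 3 members were higher in CIA against adjuvant (Epyc lost) and 4 lower in CIA+MLIF against CIA (Fmod lost). A crossed pairing of the CIA numbers, chosen after seeing the data, gave 4 and 4.

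Signs turned only for changes that were not called. After quantile normalization, Dcn was 0.20 in CIA against adjuvant and -0.23 in CIA+MLIF against CIA, where Prelp was 0.01. Bgn was -0.07 in adjuvant+MLIF against adjuvant. In CIA+MLIF against adjuvant+MLIF, Bgn was 0.10, Fmod 0.04 and Prelp 0.10. In CIA+MLIF against adjuvant, Bgn was 0.04 and Aspn 0.02. Without CIA replicate 1 as well, these read 0.21, -0.25, 0.19, -0.07, 0.11, 0.04, 0.11, 0.04 and 0.02 in that order, and Aspn was -0.22 in the interaction. After centring, Dcn was 0.06 and Prelp 0.08 in CIA against adjuvant, Dcn -0.22 in CIA+MLIF against CIA, Fmod 0.00 in adjuvant+MLIF against adjuvant, Epyc 0.00 in CIA+MLIF against adjuvant+MLIF, and Aspn -0.21 and Prelp -0.17 in the interaction.

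With arrays left out 1 at a time, the values that changed sign ran as follows. In CIA against adjuvant, Aspn ran from -0.42 to 0.44 and Ogn from -0.18 to 0.18. In CIA+MLIF against CIA, Dcn ran from -0.18 to 0.18, Aspn from -0.49 to 0.38 and Prelp from -0.09 to 0.08. In adjuvant+MLIF against adjuvant, Dcn ran from -0.04 to 0.09, Bgn from -0.01 to 0.08, Aspn from -0.17 to 0.02, Fmod from -0.01 to 0.01, Prelp from -0.14 to 0.03 and Omd from -0.01 to 0.15. In CIA+MLIF against adjuvant+MLIF, Aspn ran from -0.15 to 0.21, Prelp from -0.17 to 0.00, Epyc from -0.11 to 0.12 and Ogn from -0.13 to 0.05. In CIA+MLIF against adjuvant, Dcn ran from -0.33 to 0.02, Bgn from -0.07 to 0.01, Aspn from -0.23 to 0.14 and Lum from -0.22 to 0.12. In the interaction, Dcn ran from -0.20 to 0.15, Aspn from -0.41 to 0.45, Prelp from -0.03 to 0.14 and Ogn from -0.22 to 0.14. Omd lies near the array controls, which limits what its signal can show.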
